A study of Triticum aestivum with 8 samples.

Results

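The genes described here are 59 genes of the distal end of wheat chromosome 1A that are not in the gliadin lists of the study. They were taken by identifier alone, between TraesCS1A02G001800 and TraesCS1A02G007344, from the 79 genes present in all 8 expression tables. All 61 identifiers that the tables hold in this range were in all 8 of them, and 2 were left out because the study lists them as gliadin genes, the omega-gliadin gene TraesCS1A02G005387 and the gamma-gliadin gene TraesCS1A02G007300. Just outside the range, TraesCS1A02G001700 stands among rows with ENSRNA identifiers and TraesCS1A02G007400 is a listed gamma-gliadin gene. Grain RNA of the cultivar AK58 (AiKang58), grown in a greenhouse after vernalization, was sequenced in 8 libraries, 2 for each of the stages DAP5, DAP9, DAP15 and DAP20, where DAP gives the days since pollination (the sample labels count them after fertilization). Endosperm without the embryo was used for the earlier stages, DAP5 and DAP9, and seeds were taken whole for the later stages, DAP15 and DAP20. Tissue and stage therefore change together after DAP9 and cannot be told apart there. No source used here says whether the RNA-seq replicates came from separate plants, so p-values measure only the spread between these libraries.

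The end of the short arm of chromosome 1A is known for the loci of the gamma- and omega-gliadins and the low molecular weight glutenins, the gluten proteins of wheat flour. Young endosperm first divides and forms cell walls and later turns to storing starch and protein, and in the storage phase the transcripts of gluten proteins make up a large part of all mRNA. The tables give no gene names, and 0 of the 59 identifiers were matched in the RefSeq gene table, so no role or exact position is given for any of these genes. "Outside the gliadin lists" therefore says only that the study did not list a gene, not what its protein is.

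The expression of each gene is given as TPM, the length-corrected abundance of a transcript when each library sums to 1000000. A TPM keeps no record of sequencing depth, and it falls in all other genes when abundant transcripts rise. In bulk tissue, fewer cells of a type and less RNA per cell cannot be told apart. The part of each table that was used held between 179 and 194 complete rows, with a summed TPM between 1022 and 38503. The tables of DAP15 were ordered differently from the others, and whether they were made in another way was not tested. As markers of starchy endosperm, the 3 listed gliadin genes were above 0 in every library, with the lowest values at DAP5.

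Most of the distal 1A genes had no or low expression in these grains. Of the 59 genes, 23 had a TPM of 0 throughout the 8 libraries, and another 15 were above 0 somewhere but stayed under a TPM of 1 in all but at most 1 library. The other 21 passed this filter and were tested. Tested genes and genes under the filter stood in stretches along the order of the identifiers. The longest stretch under the filter ran over 16 genes from TraesCS1A02G002800 to TraesCS1A02G004126, with 13 of them at 0 throughout and a highest TPM of 0.154. A second stretch of 11 genes from TraesCS1A02G006000 to TraesCS1A02G007100 had 6 genes at 0 throughout and a highest TPM of 0.475. Tested genes stood together from TraesCS1A02G001800 to TraesCS1A02G002300 (6 genes) and from TraesCS1A02G005500 to TraesCS1A02G005900 (5 genes). The number of genes at a TPM of 1 or more was 22 and 20 in the DAP5 libraries, 20 and 20 in those of DAP9, 19 and 19 in those of DAP15 and 19 and 19 in those of DAP20.

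**Figure D1:**
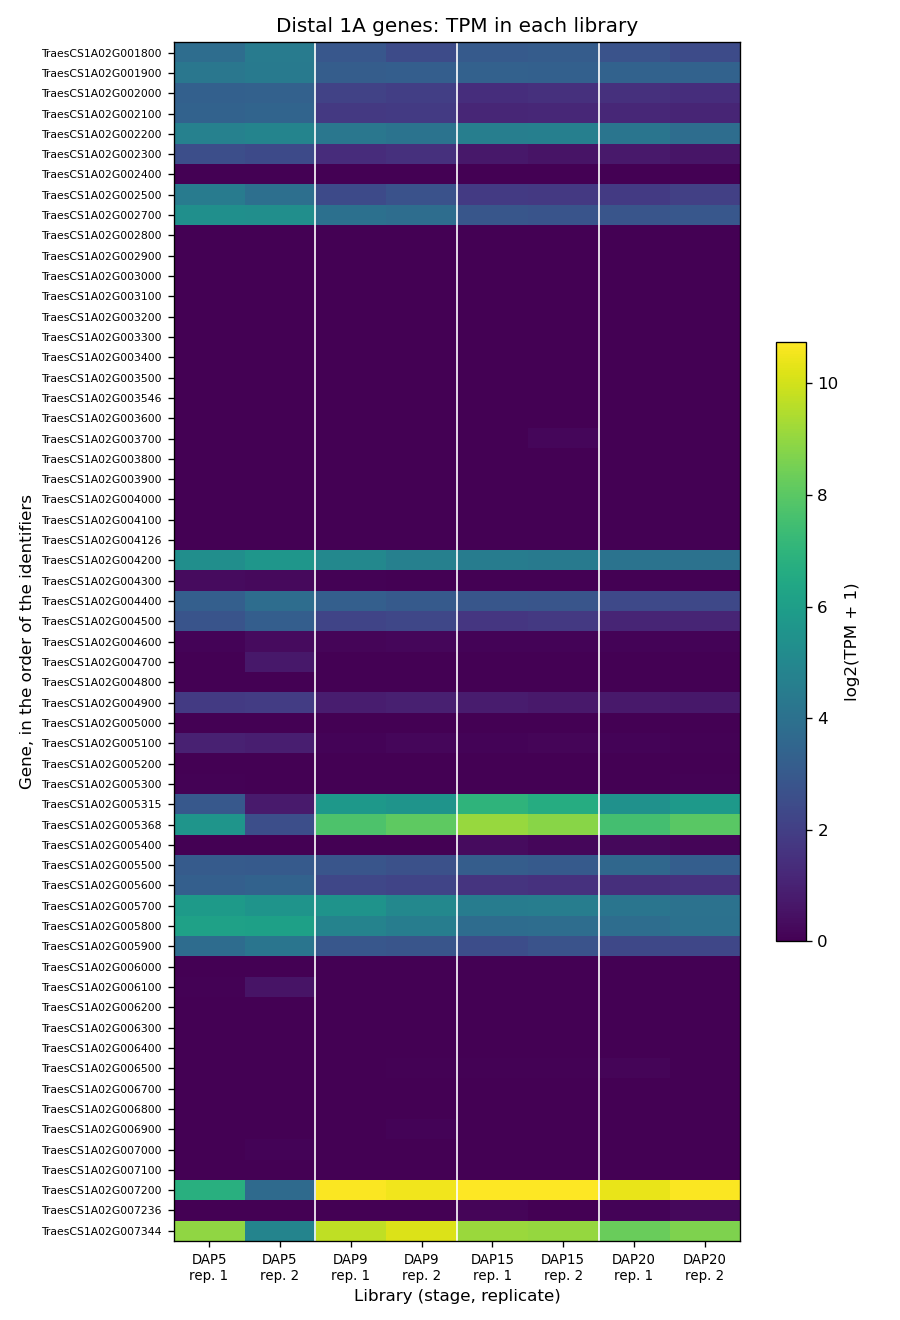
TPM of the 59 distal 1A genes in the 8 libraries, as log2(TPM + 1) on the colour scale, with genes down the page in the order of their identifiers and libraries across by stage and replicate. The 23 genes at 0 in every library and the 15 others under the filter form the dark stretches, and TraesCS1A02G007200 and TraesCS1A02G007344 are the brightest rows.

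Among the 15 genes above 0 but under the filter, the highest value was that of TraesCS1A02G005100. It had a TPM of 1.01 and 0.864 in the DAP5 libraries, 0.0760 and 0.154 in those of DAP9, 0.0718 and 0.105 in those of DAP15 and 0.0771 and 0.0436 in those of DAP20, so both DAP5 replicates lay above all later libraries. Of these 15 genes, 3 were above 0 only at DAP5, and 4 were above 0 in a single library. The others of the 15 had a highest TPM between 0.00801 and 0.606. At such levels the tables do not allow a difference between stages to be told from the detection of few reads.

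The replicates of DAP5 stood apart in some of the distal 1A genes, and also in the gliadin genes and the genes among the ENSRNA rows. In 4 of the 21 tested genes, TraesCS1A02G005315, TraesCS1A02G005368, TraesCS1A02G007200 and TraesCS1A02G007344, they differed more than 2-fold in TPM + 1, and replicate 1 was the higher in all 4. The ratio of replicate 1 to replicate 2 in TPM was between 8.85 and 17.6 for these 4 genes, with a median of 9.48. In the 3 listed gliadin genes the same ratio lay between 7.05 and 15.2, and in the 13 genes among the ENSRNA rows that were above 0 in both DAP5 libraries it lay between 1.92 and 26.3. In the other 17 tested genes it lay between 0.633 and 1.46, with a median of 0.923. At DAP20 the 4 genes were lower in replicate 1, at 0.731 to 0.793 of replicate 2, and so were the 3 gliadin genes, at 0.487 to 0.718. The gap at DAP20 was larger in the 17 genes among the ENSRNA rows, at 0.0507 to 0.620 with a median of 0.199. At DAP9 and DAP15 the ratios of the 4 genes lay between 0.727 and 1.25. The cause of the gap at DAP5 was not tested, and results that rest on DAP5 are given below with each of its replicates left out. The 4 genes are therefore described apart from the other 17, a grouping made after the values were seen.

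**Figure D2:**
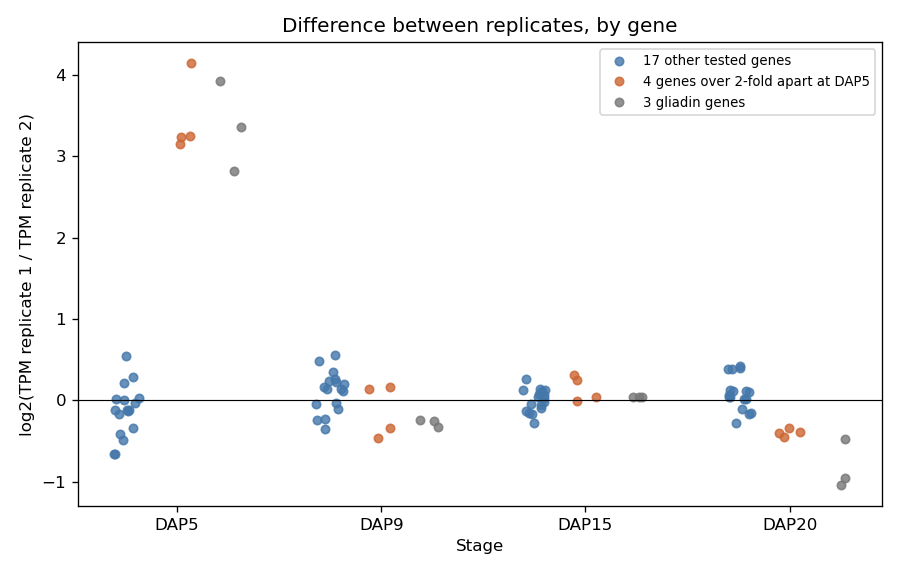
log2 of the ratio of replicate 1 to replicate 2 in TPM for each gene at each stage, with 1 point per gene for the 17 other tested genes, the 4 genes over 2-fold apart at DAP5 and the 3 listed gliadin genes (points are spread sideways for sight only). At DAP5 the 4 genes and the gliadin genes lie far above 0, with ratios of at least 7.05, while the 17 other genes lie around 0 at all stages.

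The 4 genes were the most abundant of the distal 1A genes from DAP9 on. TraesCS1A02G007200 was the highest gene by mean TPM, with a TPM of 107 and 12.1 in the DAP5 libraries, 1618 and 1471 in those of DAP9, 1699 and 1713 in those of DAP15 and 1319 and 1663 in those of DAP20. TraesCS1A02G007344 had 493 and 28.0 TPM in the DAP5 libraries, 839 and 1153 TPM in those of DAP9, 551 and 533 TPM in those of DAP15 and 312 and 409 TPM in those of DAP20. The first gene was at a plateau from DAP9 to DAP20 with all 6 libraries above both DAP5 replicates, while the second had its highest replicates at DAP9, and at DAP20 its replicates lay between those of DAP5. TraesCS1A02G005368 had 47.6 and 5.05 TPM in the DAP5 libraries, 216 and 273 TPM in those of DAP9, 539 and 454 TPM in those of DAP15 and 185 and 253 TPM in those of DAP20. TraesCS1A02G005315 had 6.83 and 0.717 TPM in the DAP5 libraries, 52.4 and 46.7 TPM in those of DAP9, 125 and 100.5 TPM in those of DAP15 and 42.6 and 56.0 TPM in those of DAP20. In both of these genes both DAP15 replicates exceeded all libraries of DAP5, DAP9 and DAP20, and the DAP9 and DAP20 replicates overlapped. TraesCS1A02G005315, TraesCS1A02G005368 and TraesCS1A02G007344 have identifiers that do not end in 00, which holds for 6 of the 59 genes. Of these 6, the 3 others were under the filter. Of the 53 genes whose identifiers end in 00, 18 were tested.

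Ratios within a library do not depend on how the library was scaled. TraesCS1A02G005368 followed the listed omega-gliadin gene TraesCS1A02G005387, a near neighbour in the order of the identifiers. Its TPM divided by that of the gliadin gene was 0.914 and 0.996 in the DAP5 libraries, 0.957 and 1.02 in those of DAP9, 1.301 and 1.13 in those of DAP15 and 1.28 and 0.905 in those of DAP20. Over the same libraries TraesCS1A02G005387 itself had between 5.07 and 414 TPM. The ratio of TraesCS1A02G005315 to TraesCS1A02G005387 was lower throughout, at 0.131 and 0.141 at DAP5 and between 0.175 and 0.302 in the 6 later libraries. TraesCS1A02G007200 moved apart from the omega-gliadin gene after DAP5, with ratios of 2.06 and 2.39 at DAP5 and between 4.10 and 9.13 in the later libraries. TraesCS1A02G007344 moved the other way, with ratios of 9.47 and 5.52 in the DAP5 libraries, 3.72 and 4.31 in those of DAP9, 1.33 and 1.32 in those of DAP15 and 2.16 and 1.47 in those of DAP20. These ratios were chosen after the values were seen and are given without a test. How the reads of near-identical gene copies were assigned is not stated in the sources used here, so the TPM of a gene that shares sequence with others is uncertain.

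Together the 4 genes held 65.0% and 11.05% of the summed TPM of the 59 genes in the DAP5 libraries, and between 93.4% and 95.7% in each of the 6 later libraries. The summed TPM of the 59 genes averaged 711 ± 418 for DAP5, 3010 ± 133 for DAP9, 2990.5 ± 79.8 for DAP15 and 2230.1 ± 363 for DAP20 (SD, n = 2 each). The sum of the 17 other genes was highest at DAP5, with 359 ± 11.4 TPM for DAP5, 175 ± 21.9 for DAP9, 132 ± 0.0591 for DAP15 and 110.2 ± 5.73 for DAP20 (SD, n = 2 each). For the 17 genes the replicates of each stage did not overlap those of any other stage in this sum. These genes were grouped by the closeness of their DAP5 replicates, so the small spread of their DAP5 sum follows in part from the grouping.

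Of the 17 genes, 16 had their highest stage mean at DAP5, and 8 had a lower mean at each later stage. The lowest mean fell on DAP9 for 2 genes, on DAP15 for 5 and on DAP20 for 10. TraesCS1A02G005800 had the highest DAP5 values of the 17, with a TPM of 69.0 and 67.6 in the DAP5 libraries, 26.6 and 22.1 in those of DAP9, 13.0 and 13.4 in those of DAP15 and 13.3 and 15.0 in those of DAP20. TraesCS1A02G002700 had 39.5 and 39.1 TPM in the DAP5 libraries, 14.7 and 13.3 TPM in those of DAP9, 6.23 and 5.90 TPM in those of DAP15 and 6.16 and 6.65 TPM in those of DAP20. In both genes the DAP9 replicates lay below those of DAP5, the DAP15 replicates lay below those of DAP9, and the DAP20 values were close to those of DAP15. TraesCS1A02G002100 showed the same course at a lower level, with 9.28 and 10.2 TPM in the DAP5 libraries, 2.47 and 2.55 TPM in those of DAP9, 1.19 and 1.28 TPM in those of DAP15 and 1.28 and 1.19 TPM in those of DAP20. Its neighbour TraesCS1A02G002000 had 8.75 and 8.96 TPM in the DAP5 libraries, 3.30 and 2.94 TPM in those of DAP9, 1.65 and 1.84 TPM in those of DAP15 and 1.79 and 1.65 TPM in those of DAP20. In these neighbours the DAP15 and DAP20 replicates overlapped. TraesCS1A02G005600 had 8.60 and 9.31 TPM in the DAP5 libraries, 3.92 and 3.55 TPM in those of DAP9, 2.06 and 1.88 TPM in those of DAP15 and 1.70 and 1.89 TPM in those of DAP20. TraesCS1A02G002500 had 20.9 and 14.3 TPM in the DAP5 libraries, 4.26 and 5.44 TPM in those of DAP9, 2.52 and 2.41 TPM in those of DAP15 and 2.59 and 3.15 TPM in those of DAP20. TraesCS1A02G002300 had 5.02 and 4.34 TPM in the DAP5 libraries, 1.57 and 1.83 TPM in those of DAP9, 0.602 and 0.502 TPM in those of DAP15 and 0.670 and 0.509 TPM in those of DAP20, and it was thus under a TPM of 1 in all whole-seed libraries. TraesCS1A02G005900 had 12.9 and 17.1 TPM in the DAP5 libraries, 6.60 and 6.11 TPM in those of DAP9, 4.73 and 5.74 TPM in those of DAP15 and 3.98 and 3.87 TPM in those of DAP20, so all later libraries lay below both DAP5 replicates.

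In 4 other genes the step to DAP9 was smaller and the lowest values were at DAP20. TraesCS1A02G004200 had a TPM of 38.4 and 48.6 in the DAP5 libraries, 31.0 and 24.4 in those of DAP9, 21.9 and 19.8 in those of DAP15 and 16.1 and 15.6 in those of DAP20. TraesCS1A02G005700 had 57.1 and 46.6 TPM in the DAP5 libraries, 44.4 and 31.7 TPM in those of DAP9, 22.1 and 22.5 TPM in those of DAP15 and 17.1 and 15.6 TPM in those of DAP20. In both genes no replicate of a stage overlapped those of another stage. TraesCS1A02G004500 had 5.97 and 8.36 TPM in the DAP5 libraries, 3.66 and 3.95 TPM in those of DAP9, 2.21 and 2.47 TPM in those of DAP15 and 1.19 and 1.17 TPM in those of DAP20. TraesCS1A02G004400 had 8.42 and 13.3 TPM in the DAP5 libraries, 8.46 and 7.15 TPM in those of DAP9, 6.30 and 6.20 TPM in those of DAP15 and 4.15 and 3.97 TPM in those of DAP20. Here the DAP9 replicates overlapped those of DAP5 in TraesCS1A02G004400 and lay below them in TraesCS1A02G004500.

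In TraesCS1A02G001800, TraesCS1A02G001900 and TraesCS1A02G004900 the largest step was likewise the one to DAP9, as in TraesCS1A02G005800 and TraesCS1A02G002100 above. TraesCS1A02G001900 had a TPM of 17.9 and 20.1 in the DAP5 libraries, 8.11 and 8.26 in those of DAP9, 8.96 and 8.72 in those of DAP15 and 9.54 and 9.43 in those of DAP20. TraesCS1A02G001800 had 13.3 and 21.03 TPM in the DAP5 libraries, 6.58 and 4.47 TPM in those of DAP9, 7.18 and 7.86 TPM in those of DAP15 and 5.77 and 4.41 TPM in those of DAP20. TraesCS1A02G004900 had 2.51 and 2.73 TPM in the DAP5 libraries, 0.791 and 0.933 TPM in those of DAP9, 0.739 and 0.684 TPM in those of DAP15 and 0.675 and 0.625 TPM in those of DAP20. All later libraries of these 3 genes lay below both DAP5 replicates. TraesCS1A02G002200 had 25.8 and 27.9 TPM in the DAP5 libraries, 18.3 and 15.9 TPM in those of DAP9, 23.1 and 24.0 TPM in those of DAP15 and 17.3 and 13.3 TPM in those of DAP20, so its DAP15 replicates lay above those of DAP9 and DAP20 without overlap. TraesCS1A02G005500 had 7.38 and 7.32 TPM in the DAP5 libraries, 6.18 and 5.28 TPM in those of DAP9, 7.95 and 7.24 TPM in those of DAP15 and 10.9 and 8.17 TPM in those of DAP20, and it was the 1 gene of the 17 with its highest mean at DAP20.

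**Figure D3:**
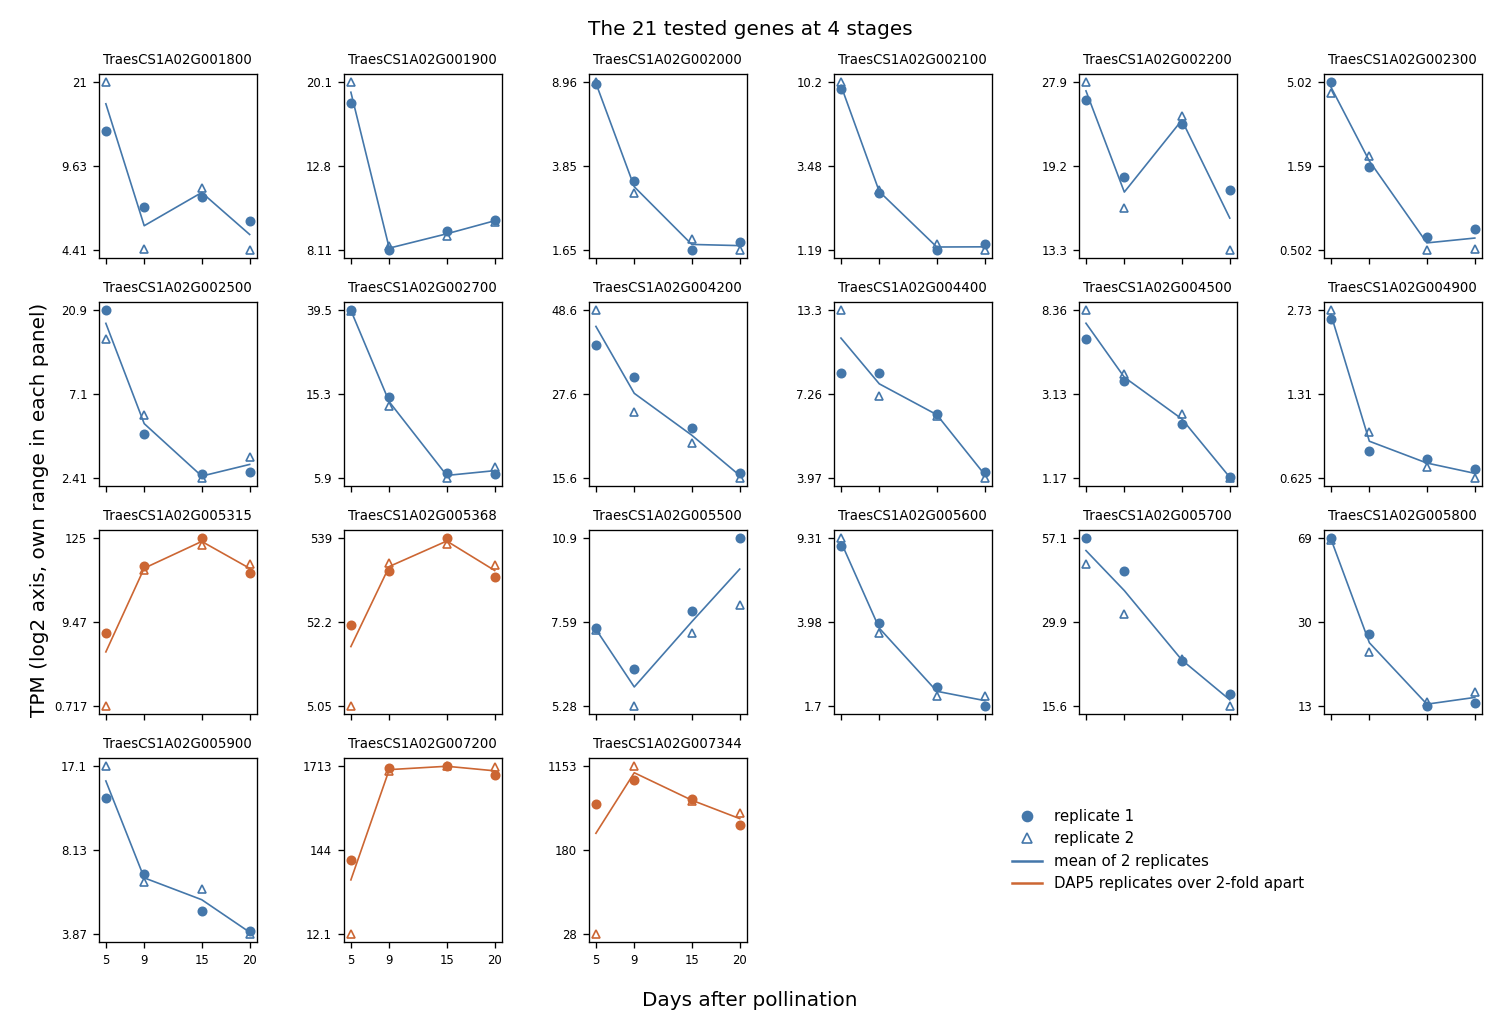
TPM of each of the 21 tested genes (log2 axis, own range in each panel) against days after pollination, with filled circles for replicate 1, open triangles for replicate 2 and lines through the means of the 2 replicates. In orange are the 4 genes whose DAP5 replicates differed over 2-fold, which have their lowest mean at DAP5, and 16 of the 17 genes in blue have their highest mean there.

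The comparisons between stages used limma on log2(TPM + 1), with all 37 tested genes of the tables and all 4 stages in 1 fit. Each gene has 1 spread over all 4 stages, so the gap at DAP5 enters the standard errors of the 4 genes in every comparison. A stage with a library left out adds nothing to this spread. A gene was called at an adjusted p under 0.01 (Benjamini-Hochberg over the 37 genes of a comparison) and a log2 fold change over 1 in size, the thresholds of the study. The log2 fold changes (log2FC) are on the log2(TPM + 1) scale, which understates the change of low genes.

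Between DAP9 and DAP5, the change within endosperm, 10 of the 21 genes were called lower at DAP9 and 2 were called higher. Among all 37 tested genes, 27% were called lower and 5.41% higher, and all of these calls were in the distal 1A genes. The falls were those of TraesCS1A02G001800, TraesCS1A02G001900, TraesCS1A02G002000, TraesCS1A02G002100, TraesCS1A02G002300, TraesCS1A02G002500, TraesCS1A02G002700, TraesCS1A02G005600, TraesCS1A02G005800 and TraesCS1A02G005900, and the rises those of TraesCS1A02G005315 and TraesCS1A02G007200. The other tested genes were the 3 listed gliadin genes and 13 among the ENSRNA rows. The gliadin genes TraesCS1A02G005387, TraesCS1A02G007300 and TraesCS1A02G007400 had log2FC of 3.78, 2.997 and 5.58, with standard errors of 1.03, 0.84 and 1.59. Their limma adjusted p lay between 0.0284 and 0.0288, so they were not called. These standard errors include the gap at DAP5, so the lack of calls in the gliadin genes does not show a lack of change. Of the 17 genes, all had a negative log2FC, between -1.65 and -0.32, including TraesCS1A02G004900, which passed the filter only through DAP5, and in 16 both DAP9 replicates lay below both DAP5 replicates. Among all 37 tested genes, 54.1% were lower at DAP9 with no overlap and 18.9% higher with no overlap. The median log2FC was -0.96 over the 21 genes and -0.75 over all tested genes. TraesCS1A02G005800 changed by -1.46 on the log2 scale (standard error 0.13, adjusted p = 0.000495 from limma) and TraesCS1A02G005600 by -1.07 (standard error 0.09, adjusted p = 0.00046 from limma). TraesCS1A02G005368 and TraesCS1A02G007344 were not called, the first at a log2FC of 3.83 ± 0.96 (standard error) with a limma adjusted p = 0.0234, the second at 3.04 ± 1.31 with a limma adjusted p = 0.115.

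The number of called rises at DAP9 changed with the library left out. Without DAP5 replicate 1, 4 genes were called higher and 10 lower at DAP9, and without DAP5 replicate 2, 3 were called higher and 8 lower. A fit without 1 of the DAP5 replicates no longer holds the gap between them in its spread, whichever is kept. The added rises of these fits are therefore no separate result. With each replicate left out in turn, the log2FC ranged from 2.33 to 5.33 for TraesCS1A02G005368 and from 1.00 to 5.08 for TraesCS1A02G007344. With any library of DAP9, DAP15 or DAP20 left out, 0 rises were called and between 6 and 9 falls, with the fewest without DAP9 replicate 1. With only DAP5 and DAP9 in the fit, which leaves 4 libraries, 0 of the 21 genes were called.

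The calls and sizes of the falls depended on the scaling. With median-of-ratios size factors from the 38 genes above 0 in all libraries, all 4 genes apart at DAP5 were called higher at DAP9, 0 genes were called lower, and the median log2FC of the 21 genes was -0.39. With these factors 12 of the 17 genes had a negative log2FC, against all 17 without size factors. With factors from the 23 distal 1A genes above 0 in all libraries, 0 genes were called in either direction, and 11 of the 17 genes had a negative log2FC. Factors taken from the distal 1A genes centre their typical change near 0 by construction, so the near balance of signs is no separate result. The 10 genes called lower kept a negative log2FC with both sets of factors, between -0.92 and -0.39 with those from all genes and between -0.69 and -0.15 with those from the distal 1A genes. The falls are therefore changes relative to the total of a library, and a common shift of the 17 genes cannot be told apart from a shift of that total. The size factors of DAP5 were 2.55 and 1.31 from all genes and 1.94 and 2.60 from the distal 1A genes. Those of DAP20 were 0.608 and 1.08 from all genes and 0.615 and 0.619 from the distal 1A genes. The factors from all genes thus set apart the DAP5 replicates of the 17 genes, whose TPM ratio had a median of 0.923. How much of the loss of calls comes from this added spread was not tested.

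Between DAP15 and DAP9, the call was 1 fall, that of TraesCS1A02G002700 (log2FC -1.08, standard error 0.09, adjusted p = 0.0024 from limma), which was also the 1 gene called among all 37 (2.7%). TraesCS1A02G002000, TraesCS1A02G002100, TraesCS1A02G005600 and TraesCS1A02G005800 had adjusted p-values from limma between 0.00785 and 0.00948 but log2FC between -0.83 and -0.59, under the fold change threshold. Of the 17 genes, 13 had a negative log2FC at DAP15 with no overlap of replicates, and the 4 others were higher with no overlap. Among all 37 tested genes, 56.8% were lower and 35.1% higher with no overlap. The 4 higher genes were TraesCS1A02G001800, TraesCS1A02G001900, TraesCS1A02G002200 and TraesCS1A02G005500, named after their values were seen. Of the 4 genes apart at DAP5, 0 were called, with log2FC of 1.17 for TraesCS1A02G005315 and 1.02 for TraesCS1A02G005368 (standard errors 0.70 and 0.96). These standard errors include the gap between the DAP5 replicates, a stage outside this comparison. Of these 4 genes, 3 were higher and 1 was lower at DAP15 with no overlap of replicates. The fall of TraesCS1A02G002700 was not called with any 1 library of DAP9, DAP15 or DAP20 left out or with either set of size factors, although its log2FC stayed between -1.15 and -1.01 with a library left out. A fit to DAP9 and DAP15 alone called 2 genes higher and 1 lower. This comparison sets whole seed against endosperm.

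Between DAP20 and DAP15, the change within whole seed, 0 of the 21 genes were called (0% of all tested genes), and 2 of them had an unadjusted p under 0.05 from limma. No alternative made a call. TraesCS1A02G005315 and TraesCS1A02G005368 had the largest log2FC in size, at -1.18 and -1.19 (standard errors 0.70 and 0.96, adjusted p = 0.429 and 0.667 from limma). Here too the standard errors include the gap between the DAP5 replicates. All 4 genes apart at DAP5 had both DAP20 replicates below both DAP15 replicates, as had 8 of the 17 other genes. Among all 37 tested genes, 37.8% were lower with no overlap. Of the 17, 3 were higher with no overlap, against 21.6% of all tested genes. The median log2FC of the 21 genes was -0.20.

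**Figure D4:**
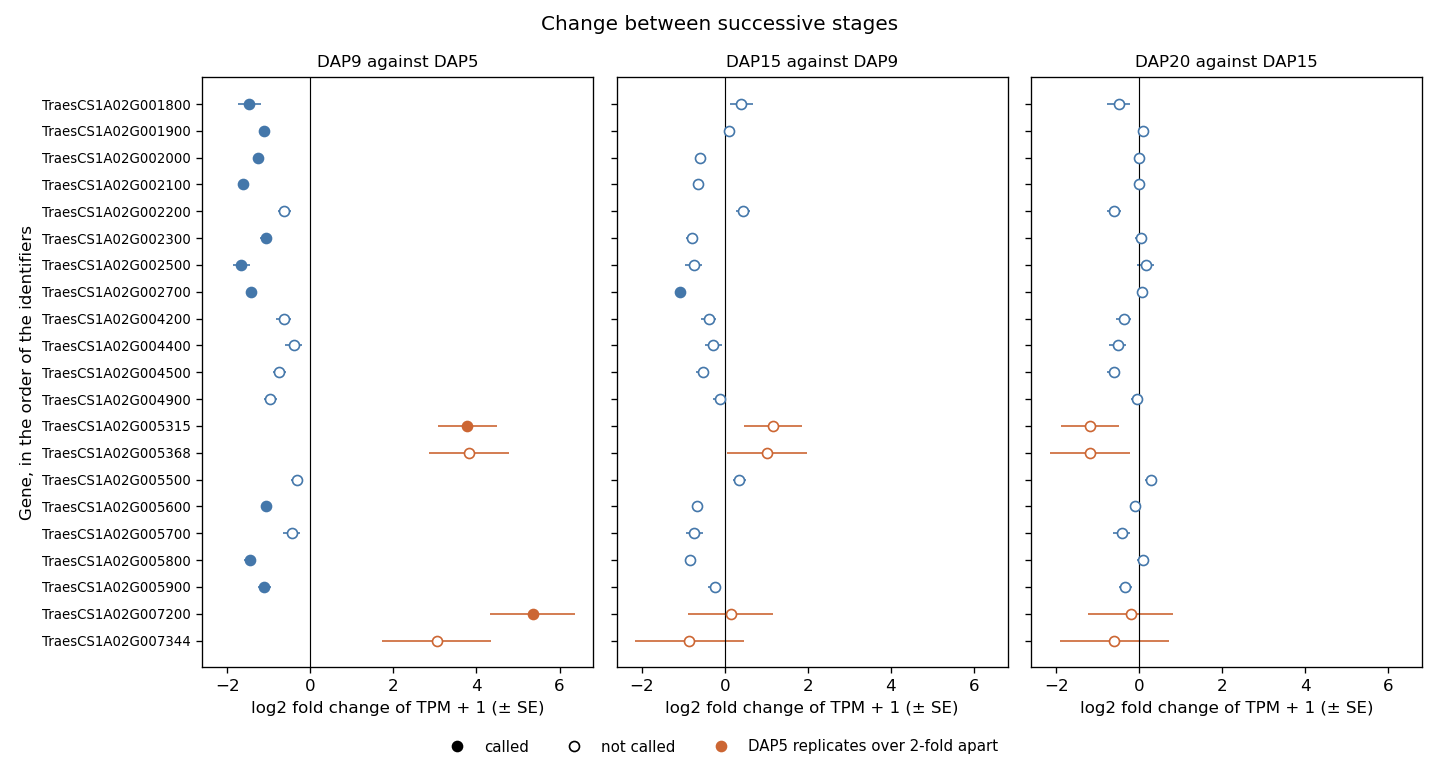
log2 fold change of TPM + 1 with its standard error for the 21 tested genes, in the order of the identifiers, at DAP9 against DAP5, DAP15 against DAP9 and DAP20 against DAP15. Filled points are called and open points are not, and orange marks the 4 genes whose DAP5 replicates differed over 2-fold. On this TPM scale the 17 genes in blue all lie left of 0 in the first panel, 1 is filled in the second and none in the third. For the first comparison, 12 of the 17 genes had a negative log2FC with size factors from all genes. With size factors from the distal 1A genes, which centre these genes near 0, 11 of the 17 did.

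Against DAP5, which all 3 later stages share as reference, 13 genes were called lower and 3 higher at DAP15 (35.1% and 8.11% of all tested genes), and 14 were called lower and 2 higher at DAP20 (37.8% and 5.41% of all tested genes). Without overlap of replicates, 16 genes were lower and 4 higher at DAP15 (62.2% and 21.6% of all tested genes), and 16 were lower and 4 higher at DAP20 (45.9% and 27% of all tested genes). The 4 higher at DAP15 were the genes apart at DAP5, and those at DAP20 were 3 of these and 1 of the 17. Called lower at each later stage were 8 genes, TraesCS1A02G002000, TraesCS1A02G002100, TraesCS1A02G002300, TraesCS1A02G002500, TraesCS1A02G002700, TraesCS1A02G005600, TraesCS1A02G005800 and TraesCS1A02G005900. TraesCS1A02G004200, TraesCS1A02G004500, TraesCS1A02G004900 and TraesCS1A02G005700 were called lower at DAP15 and DAP20 but not at DAP9, and TraesCS1A02G004400 only at DAP20, where its log2FC was -1.20 (standard error 0.21, adjusted p = 0.00473 from limma). TraesCS1A02G004900 had passed the filter only through its DAP5 libraries, so its falls from DAP5 are a description and support nothing. TraesCS1A02G001800 was called lower at DAP9 and DAP20, and TraesCS1A02G001900 at DAP9 and DAP15. The largest fall to DAP20 on the log2(TPM + 1) scale was that of TraesCS1A02G002700 (log2FC -2.45, standard error 0.09, adjusted p = 1.98e-05 from limma). This order depended on the pseudocount. With a pseudocount of 0.1 the log2FC was -2.88 for TraesCS1A02G002100, -2.80 for TraesCS1A02G002300 and -2.60 for TraesCS1A02G002700. The 2 genes called higher at DAP20 were TraesCS1A02G005315 (log2FC 3.77, standard error 0.70, adjusted p = 0.00595 from limma) and TraesCS1A02G007200 (log2FC 5.30, standard error 1.02, adjusted p = 0.00654 from limma), and TraesCS1A02G005368 joined them at DAP15. With size factors from all genes, 0 falls and 3 rises were called at DAP20, and with factors from the distal 1A genes 0 falls and 3 rises, among them that of TraesCS1A02G005500. When just the 2 stages of a comparison were fitted, 7 falls were called at DAP15 and 5 at DAP20, with 0 rises. Without DAP15 replicate 1 or 2, 8 and 9 falls were called at DAP15, and without DAP20 replicate 2, 10 falls were called at DAP20, each with 0 rises. Without DAP5 replicate 1, 4 rises and 14 falls were called at DAP15, and 4 rises and 15 falls at DAP20. Without DAP5 replicate 2, 3 rises and 11 falls were called at DAP15, and 3 rises and 12 falls at DAP20. Fits without a DAP5 replicate do not hold the gap at DAP5 in their spread, so their added rises are no separate result. The log2FC at DAP20 was 4.86 and 2.67 for TraesCS1A02G005315 without DAP5 replicate 1 and without replicate 2, and 6.82 and 3.78 for TraesCS1A02G007200. At DAP20, 0 rises were called with any library of DAP9, DAP15 or DAP20 left out or without the filter.

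Between DAP20 and DAP9, 2 genes were called, TraesCS1A02G002700 (log2FC -1.01) and TraesCS1A02G004500 (log2FC -1.14), both lower at DAP20 (5.41% of all tested genes). Without overlap of replicates, 14 genes were lower and 2 higher at DAP20 (43.2% and 21.6% of all tested genes). With DAP5 replicate 1 or 2 left out 4 falls were called, and with any library of another stage left out 0 genes were.

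Since the calls depend on the scaling, the 17 genes were also set against their own median change. At DAP20 against DAP5 the median log2FC of the 17 genes was -1.69, and TraesCS1A02G005500 lay 2.01 above it, TraesCS1A02G002200 0.90 above it and TraesCS1A02G001900 0.76 above it. On the log2(TPM + 1) scale TraesCS1A02G002700 lay lowest, at -0.76 from the median, followed by TraesCS1A02G002100 at -0.57 and TraesCS1A02G002500 at -0.56. The spread within the 17 genes can also be read within each library. TraesCS1A02G005800 and TraesCS1A02G005500 stand close together in the order of the identifiers, and the ratio of the first to the second in TPM was 9.36 and 9.23 in the DAP5 libraries, 4.30 and 4.20 in those of DAP9, 1.63 and 1.86 in those of DAP15 and 1.22 and 1.83 in those of DAP20. The ratio of TraesCS1A02G002700 to TraesCS1A02G002200 was 1.53 and 1.40 in the DAP5 libraries, 0.8003 and 0.834 in those of DAP9, 0.269 and 0.246 in those of DAP15 and 0.357 and 0.502 in those of DAP20. By contrast, the ratio of TraesCS1A02G002100 to its neighbour TraesCS1A02G002000 moved only between 0.695 and 0.868 from DAP9 to DAP20, and was 1.06 and 1.14 at DAP5. These pairs were chosen after the values were seen, and no test is given for them.

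TraesCS1A02G002200, TraesCS1A02G005500 and TraesCS1A02G007344 were the 3 tested genes not called in any of the 6 comparisons. At DAP20 against DAP5, TraesCS1A02G002200 had a log2FC of -0.79 (standard error 0.16, adjusted p = 0.00757 from limma), under the fold change threshold. TraesCS1A02G005500 had 0.32 (standard error 0.15, adjusted p = 0.114 from limma), and TraesCS1A02G007344 had 1.58 (standard error 1.31, adjusted p = 0.333 from limma). Of the distal 1A genes, 5 stand in the stage clusters of the study, which were formed on the same samples together with leaf, and leaf was not analysed here. TraesCS1A02G002200, TraesCS1A02G005315 and TraesCS1A02G005368 are in its DAP15s cluster, and of these TraesCS1A02G005315 and TraesCS1A02G005368 had their highest mean at DAP15 and TraesCS1A02G002200 at DAP5. TraesCS1A02G002300 belongs to the Leafs cluster of the study, whereas TraesCS1A02G005600 belongs to its Alls cluster. Both had their highest mean of the 4 grain stages at DAP5.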

How the data were processed

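The deposited tables, 1 for each library, hold TPM per gene on a linear scale, as the authors computed them. The methods of the study name fastp, hisat2 and TPMCalculator, whereas the submitters' processing notes name Trimmomatic, HISAT2 2.0.5 and StringTie 1.3.3b. Genome build and annotation are not given in the sources used here. Of each table only its opening rows were at hand, and the last of these, cut inside a value, was dropped. TPM keeps no depth, so no counting interval is given.

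The tested genes had 1 TPM or more in 2 or more libraries. The 6 comparisons were fitted on log2(TPM + 1) by limma 3.58.1 under R 4.3.3, using lmFit and then contrasts.fit and eBayes with trend. DESeq2, used by the authors, needs counts. Python 3.11.15, numpy 2.4.6, pandas 2.3.3 and matplotlib 3.10.9 served the rest. On simulated data the fit was tested for known changes. The simulation gave all genes and stages the same spread, so it does not cover a replicate gap such as that at DAP5. Replicates shared 0 identical values above 0 in the tested genes. Named were called genes, the 5 most abundant tested genes and genes in the study's stage clusters. The genes and lists were chosen with earlier results of these data known. Alternatives were pseudocounts of 0.1 and 5, no filter, a filter at a TPM of 5, 2 sets of size factors, fewer stages in the fit, eBayes without trend or robust, an adjusted p under 0.05, no fold change threshold, the replicate number as a term, and each replicate left out. With 2 samples against 2, an exact permutation test cannot go below p = 0.333 and was not used.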

Additional observations from a re-analysis of the deposited data

How the results depend on the processing

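Calls between DAP9 and DAP5 (12 of the 21 tested genes) became 6 with a pseudocount of 5, 4 with size factors from all genes, 0 with those from the distal 1A genes and 0 with only the compared stages. Between DAP15 and DAP9 (1 call) they became 2 with a pseudocount of 0.1, 5 without the fold change threshold, 3 with only the compared stages, and 0 with a pseudocount of 5, either set of size factors or the replicate block. Between DAP15 and DAP5 (16) they became 10 with a pseudocount of 5 and 7 with only the compared stages. With size factors from all genes they became 4 (4 rises and 0 falls), and with those from the distal 1A genes 7 (5 rises and 2 falls). Between DAP20 and DAP5 (16) they became 3 with either set of size factors and 5 with only the compared stages. Between DAP20 and DAP9 (2) they became 5 with a pseudocount of 0.1 or without the fold change threshold, 1 without a filter, and 0 with a pseudocount of 5, either set of size factors, only the compared stages, eBayes without trend or the replicate block. Between DAP20 and DAP15 they stayed at 0 in all alternatives run.

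The median log2FC at DAP9 against DAP5 (-0.96) was -1.20 and -0.53 with pseudocounts of 0.1 and 5, 0 without a filter, -0.75 with a filter at a TPM of 5, and -0.39 and -0.15 with size factors from all genes and from the distal 1A genes. At DAP15 against DAP9 (-0.38) it was -0.26 with a pseudocount of 5, 0 without a filter, and reversed to 0.0915 and 0.0767 with these size factors. At DAP20 against DAP15 (-0.20) it was 0 without a filter, -0.34 with a filter at a TPM of 5, -0.31 with size factors from all genes and reversed to 0.11 with those from the distal 1A genes. At DAP20 against DAP5 (-1.55) it was -0.97 with a pseudocount of 5, 0 without a filter, -0.46 with size factors from all genes and reversed to 0.12 with those from the distal 1A genes. With the latter factors 10 of the 17 genes had a negative log2FC there, against 16 without size factors. Among the genes called there, TraesCS1A02G001800, TraesCS1A02G004200, TraesCS1A02G004400 and TraesCS1A02G005700 reversed, to 0.12, 0.41, 0.41 and 0.20. Without a filter the median is over all 59 genes, 23 of them at 0 in every library. The cause of the other changes was not tested.

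With each replicate left out in turn, calls ranged from 6 to 14 (DAP9 against DAP5), 0 to 1 (DAP15 against DAP9), 0 to 0 (DAP20 against DAP15), 8 to 18 (DAP15 against DAP5), 10 to 19 (DAP20 against DAP5) and 0 to 4 (DAP20 against DAP9), and the medians from -1.02 to -0.91, -0.48 to -0.22, -0.32 to -0.0750 and, for DAP20 against DAP5, -1.66 to -1.24. The replicate numbers did not pair the samples: correlations of the deviations of replicate 1 between stages, across the 37 genes, which are not independent, were -0.603 at the lowest and above 0.1 in only 2 of the 6 pairs of stages. With the replicate block, 0 genes were called higher and 8 lower at DAP9, and 0 higher and 11 lower at DAP20, each against DAP5. TPM without depth and 2 libraries per stage limit all of these values.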
